A study of Mus musculus with 20 samples.

Results

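Type I interferon-stimulated genes are the genes that cells switch on when interferon-alpha or interferon-beta binds its receptor. The set described here holds 35 of them, named by symbol, in tumours grown from the mouse ovarian cancer line ID8. All 35 were found among the 55406 genes of the deposited count table, and all 35 were among the 18144 genes that passed the filter on low counts. The deposited table of RPKM values (reads scaled to gene length and library size) held 33, without Mx1 and Mx2. The genes were chosen by name, with earlier results of these data known.

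The ID8 cells lacked Trp53 and Brca1 and expressed luciferase, and these alterations were shared by every tumour, the untreated ones included. The cells had been injected into the peritoneum of female C57/BL6 mice. There were 20 tumour libraries in 6 groups. The control group (n = 3) was untreated. The PARPi group (n = 3) received the PARP inhibitor olaparib by mouth at 40 mg/kg per day. The ICB group (n = 3) received immune checkpoint blockade, 100 µg of an antibody to CTLA-4 and 200 µg of an antibody to PD-L1. The PARPi+ICB group (n = 3) received olaparib with both of those antibodies. The PARPi+anti-VEGFA group (n = 4) received olaparib with 20 µg of an antibody to VEGFA, and the full combination (n = 4) received all 4 agents. Antibodies were injected into the peritoneum 2 times a week, and the age of the mice and the duration of treatment were not given in the sources used here. The comparisons ask how each agent, alone or added to others, changed the tumours. In bulk tissue, a change in the number of cells of a type and a change of RNA per cell cannot be told apart.

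In outline, type I interferons bind IFNAR1 and IFNAR2, whose kinases JAK1 and TYK2 activate transcription factors. STAT2 and IRF9 are subunits of the factor ISGF3, which binds interferon-stimulated response elements in promoters. DNA damage, of which PARP inhibition is a known source in BRCA1-deficient cells, can release DNA into the cytosol, where cGAS and STING sense it and induce interferon-beta. Many of the genes also respond to interferon-gamma, the product of activated T and NK cells, so a rise in their RNA does not by itself name the ligand. Among the 35 are the IFIT proteins, which bind foreign RNA, the OAS family, whose enzymes make the activator of RNase L, the MX GTPases and the membrane restriction factors Ifitm3 and Bst2. The ubiquitin-like protein Isg15 comes with its protease Usp18 and the ligases Herc6 and Trim25, and the nucleic acid sensors are Ifih1 (MDA5), Ddx58 (RIG-I), Dhx58 (LGP2), Zbp1 and Eif2ak2 (PKR). The transcription factors are Stat2, Irf7 and Irf9.

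Promoter windows of 300 bases, from 250 before to 50 after each start site, were taken from RefSeq (build GRCm38.p6) for the 27 of the 35 genes that matched by symbol. The core of the interferon-stimulated response element was searched as GAAANNGAAA on both strands, where N is any base and matches may overlap each other. It was found in 14 of the 27 genes (51.9%), against 1079 of 27025 genes (3.99%) in the whole promoter table. By window, 14 of 32 windows of the set (43.8%) held a match, against 1131 of 32851 (3.44%). The sites below show the motif in members with different roles. Each line runs 5′ to 3′ on the strand of the gene from 10 bases before the first match to 10 bases after it or to the end of the window, and capitals mark every base that lies in a match. A site read as TTTC repeats has its GAAA repeats on the opposite strand.
Isg15, chr4:156200877-156200906, minus strand: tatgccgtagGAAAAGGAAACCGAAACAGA
Ifit3, chr19:34583363-34583392, plus strand: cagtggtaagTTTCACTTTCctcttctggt
Ifit3b, chr19:34607759-34607788, plus strand: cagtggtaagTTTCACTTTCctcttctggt
Oas1a, chr5:120907526-120907555, minus strand: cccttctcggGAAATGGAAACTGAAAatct
Oas1g, chr5:120887612-120887641, minus strand: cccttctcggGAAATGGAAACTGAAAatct
Oas3, chr5:120777715-120777744, minus strand: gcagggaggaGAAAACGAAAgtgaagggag
Stat2, chr10:128270266-128270295, plus strand: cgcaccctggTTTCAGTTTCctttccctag
Ifih1, chr2:62646206-62646233, minus strand: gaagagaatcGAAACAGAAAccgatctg
Ddx58, chr4:40239804-40239833, minus strand: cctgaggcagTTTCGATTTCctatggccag
Eif2ak2, chr17:78882535-78882564, minus strand: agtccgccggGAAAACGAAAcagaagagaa
Isg15 held 3 overlapping matches, the first starting 78 bases before its start site. The printed stretches of Ifit3 and Ifit3b are the same, as are those of Oas1a and Oas1g, and these pairs are also alike in their transcripts. Of the 50-base stretches of the Ifit3 transcripts 51.2% also occur in Ifit3b, and of those of Oas1a 57.6% occur in Oas1g. Their counts are therefore uncertain, since reads from the shared stretches match both copies. Exons of other genes on the same strand overlap 13.9% of the exon bases of Rtp4 and 13.7% of those of Herc6, so these counts are uncertain too. Exons on the opposite strand overlap 16.8% of those of Ifi35, which would matter less if reads were counted by strand. The other members with a match were Ifit1, Rsad2, Ifitm3 and Bst2. The windows of 13 genes held no match, those of Ifit2, Isg20, Irf7 and Sp100 among them, which says only that these letters are not in those windows.

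The libraries held 26.9 M to 34.7 M counts on genes, where M is the SI mega. Gene levels are given below as CPM, counts per M counts of the library with TMM scaling (edgeR's trimmed-mean normalisation between libraries), and differences as log2 fold changes with their standard error (SE) from edgeR's quasi-likelihood test across all 20 libraries. A gene is called at a Benjamini-Hochberg adjusted p under 0.05 over all 18144 genes. The median log2 fold change over all genes tested ran from -0.02 to 0.01 over the comparisons. Acinar RNA of the pancreas, a neighbouring organ, stood above 2 on the mean log2 CPM scale in 4 libraries, ICB replicate 3, PARPi+anti-VEGFA replicates 1 and 4, and full combination replicate 2. A set of 3 RNAs tied to library quality (Rn7sk, Lars2 and Mir6236) stood at 4.64 ± 0.18 (SD, n = 3) mean log2 CPM in controls and lower in the mean of every treated group, down to 2.75 ± 0.04 (SD, n = 4) with PARPi+anti-VEGFA. Markers of the ID8 epithelium and mesothelium were present in all groups, but stood higher in every control library (7.50 to 7.65 mean log2 CPM) than in every treated library (at most 7.33). Of 8 such markers 5 were called lower than control with PARPi+ICB, with PARPi+anti-VEGFA and with the full combination each. Of all genes 16.1%, 17.8% and 24.2% were called there, in either direction. The part of these markers in the results below was not tested.

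Levels between genes are compared per length. The deposited RPKM could not be used for this, since the length behind it was the genomic span of each gene, introns included: of 11674 genes with at least 2000 counts, 99.8% had an implied length within 10% of 1 common multiple of that span, against 8.64% for the coding length. CPM values were therefore divided by the merged exon length in kilobases. On that scale Ifitm3, which blocks entry of viruses at membranes, was highest at 171 CPM per kilobase over all 20 libraries. Bst2 (tetherin) followed at 136, Oasl2 at 73.0, Ifi27l2a at 54.6 and Isg15 at 39.1. Rtp4, a chaperone of receptors, stood at 20.1 CPM per kilobase of exon, although its deposited RPKM of 0.461 was the lowest of the 33, with a gene span of 93.9 kilobases. The lowest per kilobase were Mx2 at 2.68, annotated as a polymorphic pseudogene, Oas3 at 4.03 and Oas1g at 4.19.

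**Figure D1:**
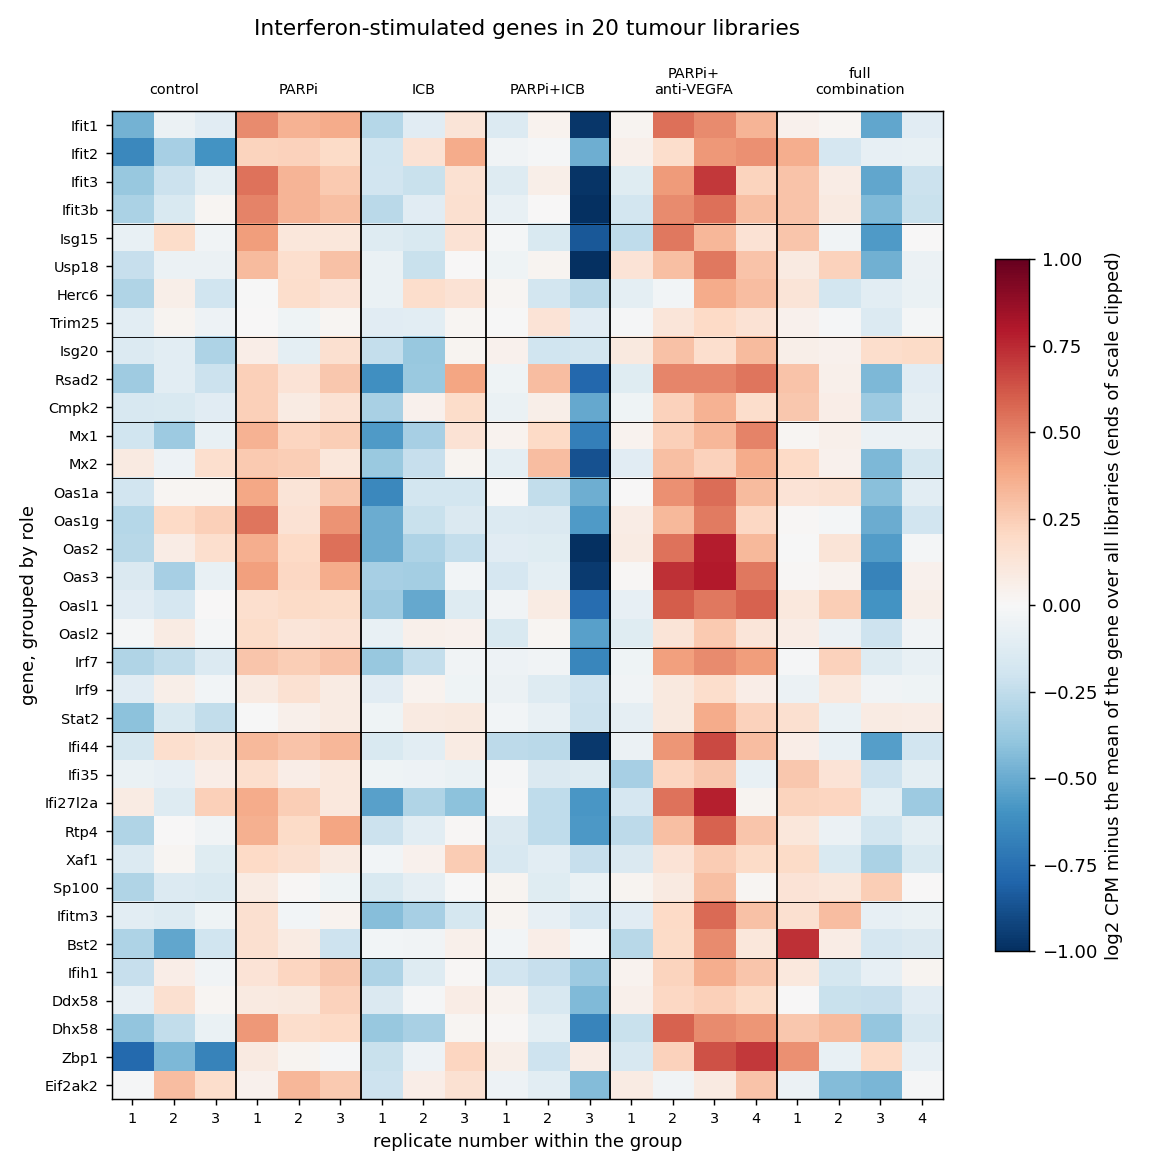
Heat map of the 35 interferon-stimulated genes (rows, grouped by role) in the 20 libraries (columns, grouped by treatment, numbered by replicate); colour gives log2 CPM minus the mean of the gene over all libraries. The 3 PARPi libraries and PARPi+anti-VEGFA replicates 2, 3 and 4 are red for most genes, and PARPi+ICB replicate 3 is the bluest column, lowest of all libraries for 22 genes.

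The 2 groups with olaparib and no checkpoint antibodies held the high levels. The highest group mean belonged to PARPi+anti-VEGFA for 22 genes, to PARPi for 11 and to the full combination for 2, and never to the control, ICB or PARPi+ICB groups. The lowest group mean belonged to PARPi+ICB for 17 genes, to ICB for 9, to controls for 8 and to the full combination for 1. As a summary per library, the median over the 35 genes of log2 CPM minus the gene's mean over all libraries was 0.20 ± 0.03 (SD, n = 3) with PARPi and 0.25 ± 0.22 (SD, n = 4) with PARPi+anti-VEGFA. It was -0.11 ± 0.08 (SD, n = 3) in controls, -0.10 ± 0.13 (SD, n = 3) with ICB, -0.23 ± 0.27 (SD, n = 3) with PARPi+ICB and -0.04 ± 0.16 (SD, n = 4) with the full combination.

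Single libraries stood apart inside these groups. PARPi+ICB replicate 3 had a summary value of -0.54, against -0.04 and -0.10 in the others of its group, and held the lowest level of all 20 libraries for 22 of the 35 genes. PARPi+anti-VEGFA replicate 1, one of the libraries with acinar RNA, stood at -0.06 against 0.29 to 0.47 in the others. Replicate 4 of that group, which also held acinar RNA, stood at 0.29. The part of acinar RNA was not tested. PARPi+anti-VEGFA replicate 3 was the highest library of all for 21 genes. The genes differed in how far they ranged: the ratio of the highest to the lowest library was 3.61 for Oas2, 3.46 for Ifit3b and 3.35 for Oas3, but 1.26 for Trim25, the least.

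With olaparib alone all 35 genes had a positive log2 fold change over control, and none was called. The median was 0.30, against -0.01 over all genes. By edgeR 12 of all 18144 genes were called in this comparison (0.0661%). At an unadjusted p under 0.05 14 of the 35 were higher and 0 lower, against 6.92% of all genes that were higher. The 14 became 7 without control replicate 1 and 8 without PARPi replicate 1. For 26 of the 35 every PARPi library lay above every control library, which held for 11.2% of all genes. DESeq2 called 3 of the 35, all higher (1.91% of all genes), and limma on the deposited log2 RPKM called 0 of 33.

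The IFIT genes had the largest log2 fold changes as a family, from 0.52 to 0.74 (median 0.61). Ifit2 (chr19:34550694-34576419, build GRCm38), which binds viral RNA and limits its translation, stood at 46.1, 57.2 and 47.7 CPM in the controls and at 84.4, 84.7 and 82.5 with PARPi. The groups did not overlap, and the PARPi libraries lay close to each other. Its log2 fold change was 0.74 ± 0.16 (SE), with an edgeR adjusted p of 0.0825. Ifit3, its partner in IFIT complexes, stood at 44.4, 49.8 and 54.2 CPM in the controls and at 84.5, 73.3 and 69.3 with PARPi (log2 fold change 0.61 ± 0.24, edgeR adjusted p 0.314). Ifit1, a further member of the family, stood at 34.1, 45.4 and 43.8 CPM against 65.5, 60.3 and 61.1 with PARPi (log2 fold change 0.60 ± 0.20, edgeR adjusted p 0.245). In both genes the groups were apart.

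The sensor Zbp1 (chr2:173206612-173218923), which detects Z-form nucleic acid and can start cell death, stood at 50.7, 63.7 and 54.6 CPM in the controls and at 92.6, 88.6 and 86.1 with PARPi. Its log2 fold change was 0.66 ± 0.19 (edgeR adjusted p 0.158). Irf7 (chr7:141262706-141266481), the factor that amplifies interferon-alpha production, stood at 72.7, 75.7 and 81.7 CPM in the controls and at 109, 106 and 109 with PARPi (0.49 ± 0.15, edgeR adjusted p 0.186). In both genes each PARPi library exceeded each control. Stat2 (chr10:128270559-128292849), a subunit of ISGF3, stood at 113, 135 and 126 CPM against 150, 156 and 159 (0.31 ± 0.10, edgeR adjusted p 0.197). The smallest log2 fold changes were those of Trim25, Eif2ak2 and Ddx58, at 0.03, 0.05 and 0.10.

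Markers of several cell types differed in this comparison as well. The mean log2 CPM of 10 T cell genes was 2.73 ± 0.15 with PARPi against 2.14 ± 0.25 in controls (SD, n = 3 each), and that of 4 leukocyte genes 6.13 ± 0.06 against 5.71 ± 0.08. The summed level of the T cell genes ran from 65.1 to 82.3 CPM against 43.5 to 58.0 in controls. None of the 10 was at 0 in any library of these groups, and 0 of the 10 were called, with 6 higher at an unadjusted p under 0.05. A list of 8 markers of plasmacytoid dendritic cells, strong producers of interferon-alpha, stood at 1.05 ± 0.15 against 0.50 ± 0.13 mean log2 CPM, with 0 of 8 called. In control replicate 2 and in control replicate 3, 1 of the 8 was at 0. A list of 8 plasma cell genes stood at 4.75 ± 0.35 against 3.50 ± 0.26 mean log2 CPM, with 1 of 8 called and no overlap between the groups for 8 of 8. Markers of the ID8 epithelium and mesothelium stood lower, at 7.24 ± 0.05 against 7.55 ± 0.09, with 0 of 8 called. PARPi replicate 1 also held skeletal muscle RNA, at 3.10 mean log2 CPM against -1.28 and -1.19 in the other PARPi libraries. The part of these cells in the result was not tested. With the level of the 3 quality RNAs as a covariate 33 of the 35 genes kept a positive fold change, with a median of 0.20 on the log2 scale and 5 higher at an unadjusted p under 0.05. That level did not overlap between the groups, at 2.99 to 4.31 mean log2 CPM with PARPi against 4.47 to 4.82 in controls. Olaparib and this measure therefore cannot be told apart here. A fit of the PARPi and control libraries alone called 7 of the 35 (1.02% of all genes).

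**Figure D2:**
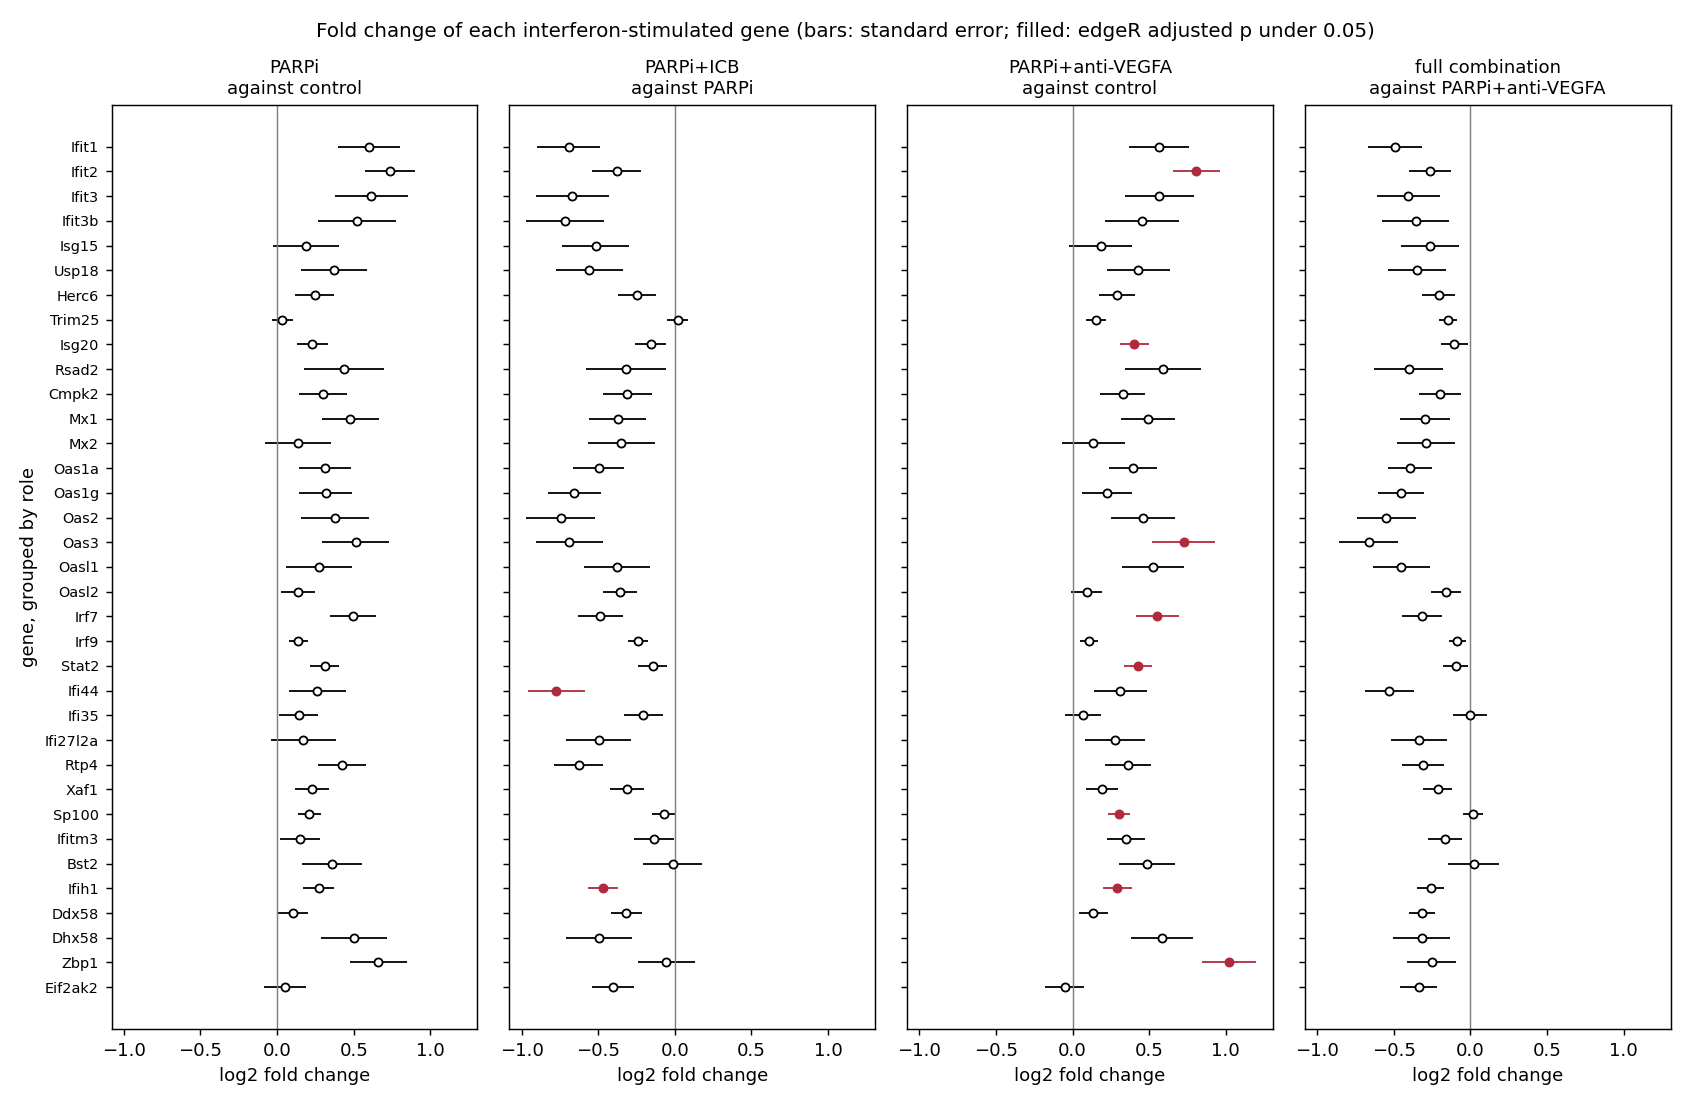
Log2 fold change (x axis) of each of the 35 genes (y axis, grouped by role) in 4 comparisons, with standard errors as bars and genes called by edgeR filled. Fold changes over control are positive for 35 genes with PARPi and for 34 with PARPi+anti-VEGFA, and negative for 34 and 33 where checkpoint antibodies were added to those treatments.

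With anti-VEGFA beside olaparib 8 of the 35 genes rose over control and 27 did not pass the threshold. The 8 were Zbp1, Ifit2, Stat2, Isg20, Sp100, Irf7, Oas3 and Ifih1. None fell, 34 of 35 had a positive fold change (all but Eif2ak2), and the median was 0.36. In this comparison 17.8% of all genes were called, near the share of 8 in 35. At an unadjusted p under 0.05 22 of the 35 were higher, against 16.3% of all genes. For 11 of the 35 all 4 treated libraries lay above all 3 controls, which held for 14.2% of all genes. This comparison and the one for olaparib alone use the same control libraries.

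Zbp1 rose most, from 50.7, 63.7 and 54.6 CPM in the controls to 77.9, 102, 135 and 142, a log2 fold change of 1.02 ± 0.18 (edgeR adjusted p 0.00129). The treated libraries were spread widely, and their lowest, replicate 1, still lay above every control. Ifit2 rose to 74.7, 81.6, 97.3 and 98.8 CPM (0.81 ± 0.15, edgeR adjusted p 0.00214). Stat2 rose to 141, 160, 194 and 176 CPM (0.43 ± 0.09, edgeR adjusted p 0.0039). Both were above all controls in all 4 libraries.

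Isg20 (chr7:78913424-78920396), an exonuclease that degrades viral RNA, stood at 30.8, 31.4 and 27.2 CPM in the controls and rose to 36.2, 41.4, 38.0 and 42.1 (0.40 ± 0.10, edgeR adjusted p 0.00799). Sp100 (chr1:85649988-85709998), a component of PML nuclear bodies, stood at 104, 117 and 115 CPM and rose to 130, 136, 157 and 130 (0.30 ± 0.07, edgeR adjusted p 0.00846). These were modest and even changes, with no overlap between the groups. Irf7 rose to 87.0, 119, 124 and 120 CPM (0.55 ± 0.14, edgeR adjusted p 0.0117). Oas3 (chr5:120753098-120777661), an OAS enzyme that responds to long double-stranded RNA, stood at 24.8, 21.7 and 25.9 CPM and rose to 27.6, 45.4, 47.2 and 39.3 (0.72 ± 0.21, edgeR adjusted p 0.0226). In both genes replicate 1 was the lowest treated library, near the controls for Oas3. Ifih1 (chr2:62595798-62646255), the sensor of long double-stranded RNA, stood at 45.8, 56.2 and 52.3 CPM and rose to 55.1, 62.6, 69.1 and 65.2 (0.29 ± 0.09, edgeR adjusted p 0.0361), with replicate 1 below the highest control.

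The number called depended on single libraries and on the quality RNAs. Without PARPi+anti-VEGFA replicate 1 20 of the 35 were called (17.5% of all genes), and for 29 the groups then did not overlap (17.6% of all genes). Without any of the libraries with acinar RNA 17 were called (13.4% of all genes). Without control replicate 1 or control replicate 3 5 were called (12% and 10.7% of all genes). With the level of the 3 quality RNAs as a covariate 0 were called by edgeR (0% of all genes), 3 were higher at an unadjusted p under 0.05 and the median was 0.15. That level did not overlap between the groups, at 2.72 to 2.81 in the treated libraries against 4.47 to 4.82 in the controls, so treatment and this measure cannot be told apart here. T cell genes stood at 3.40 ± 0.27 mean log2 CPM (SD, n = 4) and 10 of 10 were called higher, as were 8 of 8 plasma cell genes. The part of these cells in the result was not tested.

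Checkpoint blockade alone split the set. Of the 35 genes 16 had a positive and 19 a negative log2 fold change over control, with a median of -0.01, and 1 was called, against 2.2% of all genes. Ifit2 rose to 63.0, 79.7 and 93.6 CPM (0.65 ± 0.16, edgeR adjusted p 0.0434), above all controls though with a wide spread. That call was kept in 4 of 14 alternative settings, and the number of positive fold changes in the set ran from 8 with the quality RNAs as a covariate to 22 without ICB replicate 1. The call of Ifit2 was lost without control replicate 1, 2 or 3 and without ICB replicate 2 or 3. It was also lost with that covariate, the replicate block, the compared groups alone, limma or without the libraries with acinar RNA. The level of the quality RNAs did not overlap between the groups, at 2.74 to 3.08 mean log2 CPM with ICB against 4.47 to 4.82 in controls. Treatment and this measure therefore cannot be told apart here. Zbp1 stood at 74.4, 83.9 and 101 CPM (0.62 ± 0.19, edgeR adjusted p 0.0891) and Stat2 at 145, 159 and 161 (0.31 ± 0.10, edgeR adjusted p 0.091), both above all controls. On the other side Ifi27l2a, a small mitochondrial protein of the set, stood at 16.9, 20.0 and 18.5 CPM, below the controls at 26.1, 22.4 and 28.9 (-0.49 ± 0.21, edgeR adjusted p 0.236). The OAS genes had negative fold changes too, for example Oas2 at 42.7, 48.6 and 51.1 CPM against 49.6, 63.2 and 67.7. T cell genes stood at 2.90 ± 0.21 mean log2 CPM against 2.14 ± 0.25 (SD, n = 3 each).

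When checkpoint antibodies were added to olaparib, 34 of the 35 genes had a negative fold change against olaparib alone, all but Trim25. The median log2 fold change was -0.38, against -0.01 over all genes. Ifih1 and Ifi44 fell past the threshold, in a comparison in which 1.26% of all genes were called. At an unadjusted p under 0.05 21 were lower and 0 higher, against 7.3% of all genes that were lower. For 26 of the 35 every PARPi+ICB library lay below every PARPi library, which held for 12.1% of all genes. DESeq2 called 10 of the 35, all lower (4.32% of all genes). The PARPi libraries also entered the comparison of olaparib with control, so the 2 comparisons share libraries.

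Ifih1 stood at 59.2, 62.4 and 64.6 CPM with PARPi and fell to 47.1, 45.8 and 41.7 with PARPi+ICB (-0.47 ± 0.10, edgeR adjusted p 0.027). Ifi44 (chr3:151730922-151749960), a cytoplasmic protein of the interferon response, stood at 71.6, 69.6 and 72.0 CPM and fell to 47.8, 47.5 and 29.4 (-0.77 ± 0.19, edgeR adjusted p 0.0482). In both genes the groups were far apart, and replicate 3 was the lowest library. Rtp4 stood at 53.6, 48.0 and 55.0 CPM against 38.0, 35.1 and 28.2 (-0.63 ± 0.16, edgeR adjusted p 0.0553). Oas2 stood at 77.3, 69.1 and 88.1 CPM against 55.7, 55.3 and 28.7 (-0.75 ± 0.22, edgeR adjusted p 0.104). Usp18, the protease that removes Isg15 and dampens receptor signalling, stood at 27.2, 24.5 and 26.7 CPM against 21.3, 22.3 and 9.76 (-0.56 ± 0.22, edgeR adjusted p 0.211). For Oas2 and Usp18 replicate 3 lay far below the other PARPi+ICB libraries.

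All 6 OAS genes and all 4 IFIT genes had non-overlapping groups, with medians of -0.58 and -0.68 on the log2 scale. Zbp1, Bst2 and Sp100 hardly differed, at -0.06, -0.01 and -0.07 on the log2 scale. Without PARPi+ICB replicate 3 none of the 35 was called, 12 were lower at an unadjusted p under 0.05, the median was -0.24, and 26 had groups that did not overlap (15.6% of all genes). Without PARPi replicate 1, 2 or 3 0 were called and 17, 19 and 21 were lower at an unadjusted p under 0.05. Limma on the deposited log2 RPKM called 0 of 33, with 21 lower at an unadjusted p under 0.05, and the covariate of quality RNAs left 0 called with 23 lower at that threshold. T cell genes went the other way, from 2.73 ± 0.15 to 3.55 ± 0.36 mean log2 CPM (SD, n = 3 each), with 3 of 10 called higher, and leukocyte genes from 6.13 ± 0.06 to 6.58 ± 0.35. PARPi+ICB replicate 3, the library lowest in interferon-stimulated genes, was the highest of its group in both lists, at 3.91 for T cells and 6.95 for leukocytes. The part of the cell makeup in the result was not tested.

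**Figure D3:**
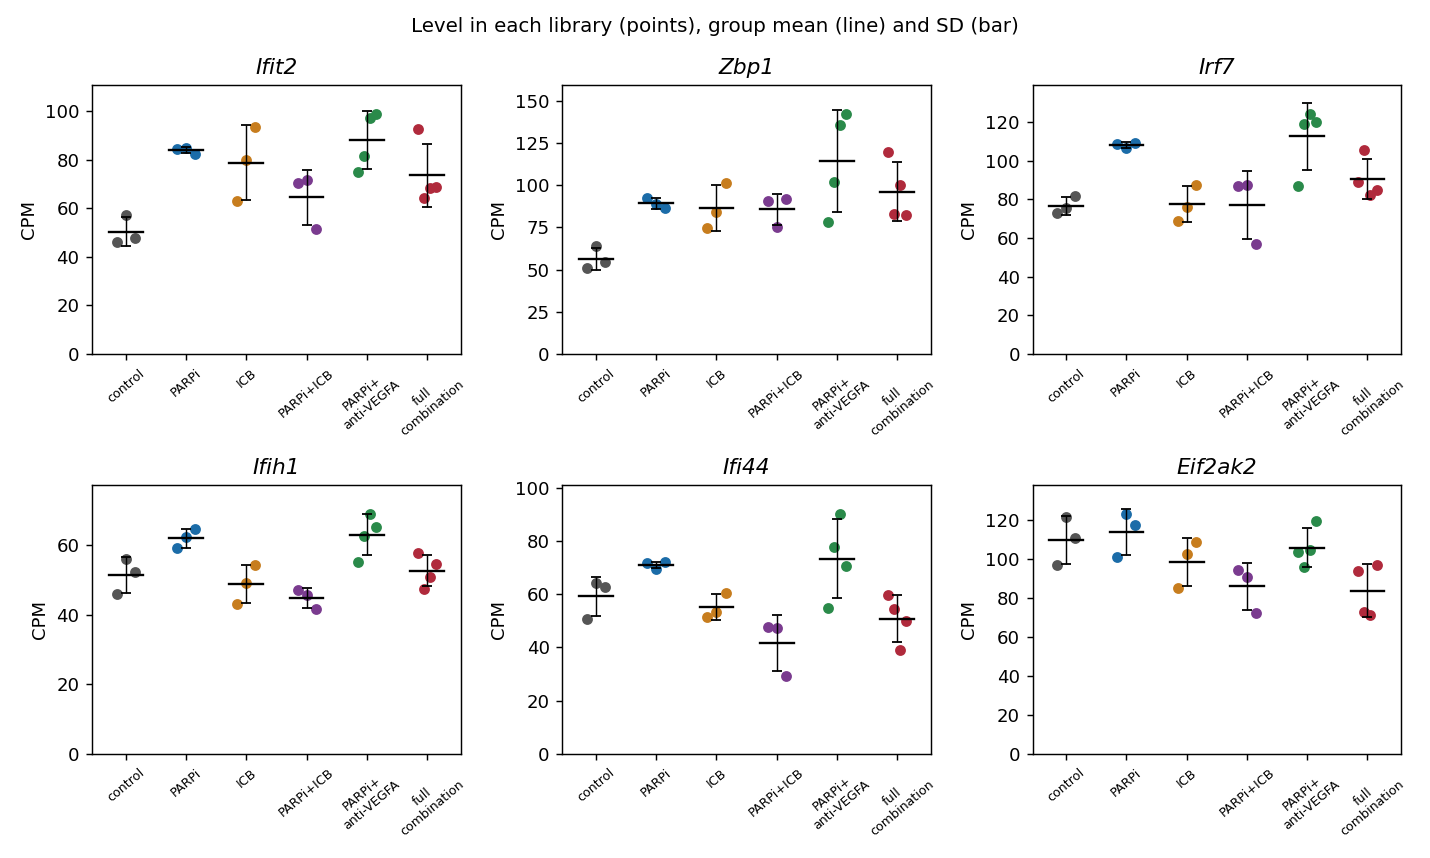
CPM (y axis, from 0) of Ifit2, Zbp1, Irf7, Ifih1, Ifi44 and Eif2ak2 in every library (points), by treatment group, with the group mean (line) and SD (bar). Ifih1 and Ifi44 are lower in all PARPi+ICB libraries than in all PARPi libraries, whereas the Zbp1 levels of these groups overlap.

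Compared with controls directly, PARPi+ICB tumours differed in 1 of the 35 genes by edgeR, against 16.1% of all genes in this comparison. Zbp1 rose to 90.4, 75.2 and 91.5 CPM (0.60 ± 0.19, edgeR adjusted p 0.0335). Of the 35 genes 12 had a positive and 23 a negative fold change (median -0.09), which turned to 21 positive and 14 negative (median 0.07) without PARPi+ICB replicate 3. The Ifi44 levels of this group lay below those of the controls, which were 50.7, 64.3 and 62.7 CPM (-0.51 ± 0.18, edgeR adjusted p 0.0691). Eif2ak2 stood at 94.3, 90.8 and 72.2 CPM, also below all controls (-0.35 ± 0.14, edgeR adjusted p 0.0895). Ifit2 stood at 70.3, 71.7 and 51.3 CPM (0.36 ± 0.16, edgeR adjusted p 0.143), with replicate 3 inside the control range. The call of Zbp1 was kept in 8 of 14 alternative settings. It was lost without control replicate 1 or 3, without PARPi+ICB replicate 1 or 3, with limma and with the quality RNAs as a covariate. The level of those RNAs did not overlap between the groups, at 2.95 to 3.53 mean log2 CPM with PARPi+ICB against 4.47 to 4.82 in controls. Treatment and this measure therefore cannot be told apart here. In this comparison 10 of 10 T cell genes were called higher.

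The full combination differed from control in 6 of the 35 genes, against 24.2% of all genes called. Zbp1, Ifit2, Stat2, Isg20 and Sp100 rose, and Eif2ak2 fell. The control libraries are those of the comparisons above. The median over the set was 0.08, with 25 positive and 10 negative fold changes. Zbp1 rose to 119, 82.7, 99.8 and 82.3 CPM (0.77 ± 0.18, edgeR adjusted p 0.00466) and Ifit2 to 92.7, 64.2, 68.2 and 68.7 (0.55 ± 0.15, edgeR adjusted p 0.0148). Stat2 rose to 168, 143, 159 and 158 CPM (0.33 ± 0.09, edgeR adjusted p 0.0125). All 4 libraries lay above all controls for these genes. Isg20 rose to 35.1, 34.7, 38.2 and 38.7 CPM (0.30 ± 0.10, edgeR adjusted p 0.0303) and Sp100 to 141, 138, 152 and 129 (0.32 ± 0.07, edgeR adjusted p 0.00443).

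Eif2ak2 (chr17:78852564-78882573), the kinase PKR that halts translation on double-stranded RNA, stood at 96.9, 121 and 110 CPM in the controls and fell to 93.9, 72.4, 71.3 and 96.8 in the full combination (-0.39 ± 0.13, edgeR adjusted p 0.0338). The highest treated library lay just below the lowest control, so the groups were apart by a narrow margin. Its promoter holds the motif shown above, 18 bases after the start site. It was the only gene of the set that edgeR called lower than control in the 5 comparisons with controls. The call was kept in 8 of 15 alternative settings and lost without the libraries with acinar RNA. With the quality RNAs as a covariate 1 of the 35 was called, against 2471 of all 18144 genes. Without control replicate 1 or control replicate 3 3 were called, against 3260 and 3170 of all 18567 genes tested there.

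Set against PARPi+anti-VEGFA, the full combination had negative fold changes in 33 of the 35 genes (median -0.30), all but Bst2 and Sp100. None was called by edgeR, in a comparison in which 0.0882% of all genes were. At an unadjusted p under 0.05 14 were lower and 0 higher, against 6.29% of all genes that were lower. DESeq2 called 3, all lower (1.39% of all genes), and limma 0. Ddx58, the sensor of short RNA ends, stood at 151, 168, 172 and 167 CPM with PARPi+anti-VEGFA and at 146, 125, 124 and 135 in the full combination (-0.31 ± 0.09, edgeR adjusted p 0.162). Oas1g stood at 10.1, 12.0, 13.7 and 11.1 CPM against 9.64, 9.45, 6.80 and 8.38 (-0.45 ± 0.15, edgeR adjusted p 0.232). These were the 2 genes with no overlap between the groups, against 2.81% of all genes. The largest differences were those of Oas3, Oas2 and Ifi44, at -0.66 ± 0.19, -0.55 ± 0.19 and -0.53 ± 0.16 (edgeR adjusted p 0.178, 0.256 and 0.196), with overlapping groups. Without PARPi+anti-VEGFA replicate 1 26 were lower at an unadjusted p under 0.05 and 19 had groups that did not overlap (4.54% of all genes). Without PARPi+anti-VEGFA replicate 3 or full combination replicate 3 7 were lower at that threshold. With the quality RNAs as a covariate 2 were lower at that threshold. The level of those RNAs did not overlap between the groups, at 2.72 to 2.81 mean log2 CPM with PARPi+anti-VEGFA against 2.96 to 4.63 in the full combination. Treatment and this measure therefore cannot be told apart here. T cell genes stood at 3.76 ± 0.24 mean log2 CPM in the full combination and at 3.40 ± 0.27 in PARPi+anti-VEGFA (SD, n = 4 each).

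Whether olaparib acted differently with and without checkpoint antibodies was tested as an interaction. It was negative for 33 of the 35 genes with a median of -0.40 on the log2 scale, and none was called, as was no gene at all by edgeR (0%). At an unadjusted p under 0.05 14 were lower and 0 higher, against 2.68% of all genes that were lower. Without PARPi+ICB replicate 3 the median was -0.24 and 8 were lower at that threshold, as were 8 without control replicate 1. Ifit2 had the lowest p of the set, with an interaction of -1.03 ± 0.23 (edgeR adjusted p 0.869), followed by Stat2 at -0.46 ± 0.13 (edgeR adjusted p 0.958). DESeq2 called 1 of the 35, Ifit2 (0.0442% of all genes), and limma 0. By the edgeR test the effect of olaparib with checkpoint antibodies is thus not shown, for any gene, to differ from its effect without them. The interaction of checkpoint antibodies with anti-VEGFA under olaparib was positive for 30 of the 35 (median 0.11; 15 positive without PARPi+ICB replicate 3), with 0 of the 35 at an unadjusted p under 0.05 and 0% of all genes called by edgeR. DESeq2 and limma called 0 of the set there as well.

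The remaining steps between treatments gave no calls in the set by edgeR, DESeq2 or limma. Olaparib added to checkpoint antibodies gave 12 positive and 23 negative fold changes (median -0.09; 21 positive without PARPi+ICB replicate 3), with 2 lower at an unadjusted p under 0.05 against 7.49% of all genes that were lower, and 0.871% of all genes called by edgeR. Anti-VEGFA added to olaparib gave 24 positive and 11 negative fold changes (median 0.05), with 0 at an unadjusted p under 0.05 and 0.573% of all genes called. The direction here depended on the setting, since 34 were positive without the libraries with acinar RNA and 11 with the quality RNAs as a covariate. The level of those RNAs did not overlap between these groups, at 2.72 to 2.81 mean log2 CPM with PARPi+anti-VEGFA against 2.99 to 4.31 with PARPi. Anti-VEGFA and this measure therefore cannot be told apart here. Anti-VEGFA added to PARPi+ICB gave 33 positive and 2 negative fold changes (median 0.17), and 22 positive with a median of 0.04 without PARPi+ICB replicate 3. There 3 were higher at an unadjusted p under 0.05, Ifih1, Sp100 and Isg20, against 2.03% of all genes that were higher, and 0% of all genes were called. Without that library 0 were. Ifih1 had a log2 fold change of 0.23 ± 0.09 in that step (edgeR adjusted p 0.999).

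In all, 10 of the 35 genes were called in at least 1 comparison by edgeR and 25 in none. The ISG15 pathway is among the latter. Isg15 stood at 27.6, 33.0 and 28.2 CPM in the controls, at 38.7, 31.3 and 31.2 with PARPi and at 28.6, 26.0 and 16.1 with PARPi+ICB. Its PARPi and control libraries overlapped (log2 fold change 0.19 ± 0.22, edgeR adjusted p 0.795), while all PARPi+ICB libraries lay below all PARPi libraries (-0.52 ± 0.22, edgeR adjusted p 0.243). Of the ligases of the pathway, Herc6 stood at 45.8 ± 6.02, 54.2 ± 3.47 and 45.7 ± 4.77 CPM, and Trim25 at 117 ± 5.37, 120 ± 2.63 and 121 ± 10.6 CPM in the same 3 groups (SD, n = 3 each).

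The sensor Dhx58, which modulates RIG-I and MDA5, stood at 11.3, 12.6 and 14.2 CPM in the controls, at 20.1, 16.8 and 17.1 with PARPi and at 12.8 ± 2.95 (SD, n = 3) with PARPi+ICB. Mx1 stood at 15.2, 13.6 and 16.6 CPM, at 22.2, 20.3 and 20.7 and at 17.9, 20.0 and 10.8 in that order. In both genes the PARPi libraries lay above all libraries of the other 2 groups. Rsad2 (viperin), which makes a chain-terminating nucleotide, and Cmpk2, a nucleotide kinase encoded beside it, had PARPi libraries above all controls, at 34.9 ± 1.63 against 25.8 ± 2.18 CPM and at 33.7 ± 1.85 against 27.4 ± 0.505 CPM (SD, n = 3 each). With PARPi+ICB Rsad2 stood at 29.2, 37.3 and 17.5 CPM, a range that spans both groups.

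The membrane restriction factors were the role with the smallest median change when checkpoint antibodies were added to olaparib, at -0.07 on the log2 scale, and 0 of the 2 had groups that did not overlap. Bst2 stood at 95.9 ± 10.5 CPM in controls, 123 ± 15.9 with PARPi, 120 ± 3.96 with ICB and 122 ± 4.44 with PARPi+ICB (SD, n = 3 each). Its level in the full combination ran from 108 to 200 CPM, with replicate 1 the highest. Irf9, the DNA-binding subunit of ISGF3, stood at 74.6, 84.1 and 79.3 CPM in the controls, at 86.2, 89.9 and 85.9 with PARPi and at 77.7, 74.1 and 70.2 with PARPi+ICB. These are small shifts, with no overlap between PARPi and either of the others, and the difference between PARPi+ICB and PARPi was -0.24 ± 0.06 (edgeR adjusted p 0.0751).

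The ligands and receptors upstream gave little signal of their own. Ifnb1, the interferon-beta gene, had 0 to 7 counts per library, and 12 of the 15 genes of ligands and receptors listed were too low to be tested. The receptor chain Ifnar1 was steady, from 110 to 129 CPM over all 20 libraries. Its log2 fold change over control was 0.03 ± 0.05 with PARPi (edgeR adjusted p 0.876). Ifnlr1, a chain of the receptor for lambda interferons, fell in the full combination (-0.38 ± 0.11, edgeR adjusted p 0.0198) and was the 1 gene of this list called in any comparison with controls.

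Of 19 tested genes of interferon signalling and nucleic acid sensing, 0 were called higher with PARPi, 1 with ICB, 5 with PARPi+ICB, 9 with PARPi+anti-VEGFA and 7 with the full combination, each against control. Of all genes 0.0661%, 2.2%, 16.1%, 17.8% and 24.2% were called in these comparisons, in either direction. Cgas, the cytosolic DNA sensor, rose with PARPi+anti-VEGFA (0.43 ± 0.11, edgeR adjusted p 0.0112) and had a log2 fold change of 0.37 ± 0.12 with PARPi (edgeR adjusted p 0.21). Its adaptor Sting1 rose with PARPi+anti-VEGFA (0.37 ± 0.10, edgeR adjusted p 0.0167) and with the full combination (0.31 ± 0.10, edgeR adjusted p 0.0343). Tlr9, an endosomal DNA sensor of dendritic and B cells, rose with PARPi+anti-VEGFA (1.18 ± 0.21, edgeR adjusted p 0.00156). Socs1, a feedback inhibitor of interferon receptors, was the gene called with ICB (1.00 ± 0.25, edgeR adjusted p 0.0452). Mavs, the adaptor of RIG-I and MDA5, fell with PARPi+anti-VEGFA (-0.27 ± 0.08, edgeR adjusted p 0.0245), the 1 gene of the list called lower there. Mavs was named after its value was seen.

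Interferon-gamma and its main targets, many of which serve antigen presentation and T cell attraction, were followed as a list of 17 genes. Their mean log2 CPM was 5.03 ± 0.12 in controls, 5.41 ± 0.12 with PARPi, 5.56 ± 0.23 with ICB, 5.56 ± 0.28 with PARPi+ICB (SD, n = 3 each), 5.67 ± 0.26 with PARPi+anti-VEGFA and 5.61 ± 0.31 with the full combination (SD, n = 4 each). On the same scale the 35 genes stood at 5.46 ± 0.09, 5.78 ± 0.04, 5.46 ± 0.15, 5.36 ± 0.28, 5.82 ± 0.22 and 5.54 ± 0.18 in that order. Of 16 tested genes of the gamma list 0 were called with PARPi, 0 with ICB, 6 with PARPi+ICB, 10 with PARPi+anti-VEGFA and 10 with the full combination, each against control and all higher. The shares of all genes called, in either direction, were 0.0661%, 2.2%, 16.1%, 17.8% and 24.2% in that order. With checkpoint antibodies added to olaparib, 12 of the 16 had a positive fold change (median 0.13) and 0 were called. Tap1, a peptide transporter of antigen presentation, rose with PARPi+ICB (0.52 ± 0.14, edgeR adjusted p 0.0141). Cxcl10, a T cell chemokine that both interferon types induce, rose with PARPi+anti-VEGFA (0.73 ± 0.18, edgeR adjusted p 0.0106).

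**Figure D4:**
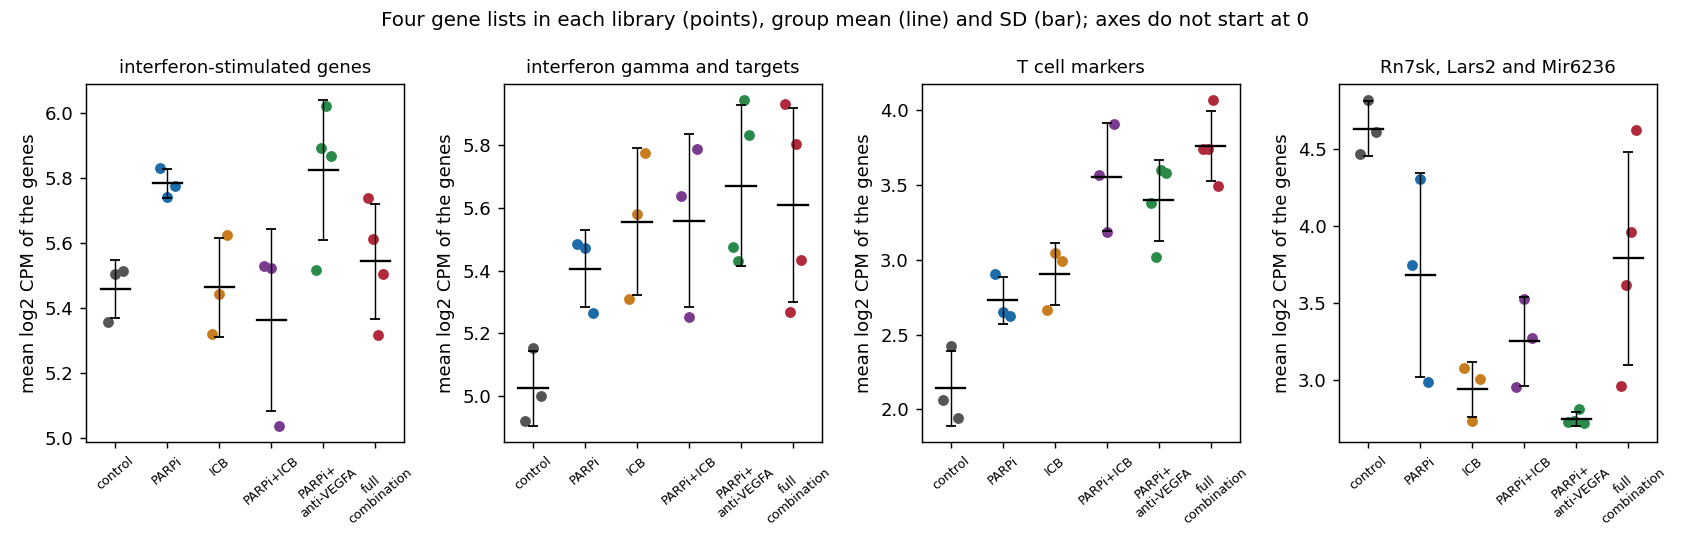
Mean log2 CPM (y axis, not from 0) of 4 gene lists in every library (points) by treatment group, with the group mean (line) and SD (bar). The interferon-stimulated genes average 5.78 with PARPi and 5.36 with PARPi+ICB, while the T cell markers average 2.73 and 3.55 in the same groups.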

How the data were processed

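RNA of 20 tumour libraries was compared, with stranded libraries made from RNA of frozen pieces weighing 100 to 500 mg. They held 26.9 M to 34.7 M counts each, and no pair of replicates agreed within sampling noise. Per the submitters' processing notes, the tools were STAR and HTSeq and the build GRCm38, with versions not given in the sources used here. The authors deposited raw read counts per Ensembl gene and log2 values of RPKM with 1 added (the 1 is read from the values). Symbols were matched for 55141 identifiers, and 265 had none (0.045% to 0.0571% of counts per library). Labels give each library a mouse group and a replicate number. Nothing further ties libraries to animals, so p-values measure the spread between these samples.

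Counts were tested with edgeR 4.0.16 (TMM, filterByExpr with minimum count 10 and minimum total 15, quasi-likelihood, R 4.3.3) over all 20 libraries, 10 comparisons and 2 interactions, with Benjamini-Hochberg adjustment. The script was tested on simulated data. Alternatives were DESeq2 1.42.0 and its size factors, limma 3.58.1 on the deposited log2 RPKM, no filter, the compared groups alone, replicate number as a block, the quality RNAs as a covariate, and leaving out libraries. Same-numbered libraries deviated together in all 3 pairs for 1 comparison, PARPi+ICB with the full combination (correlations from 0.102 to 0.289). All 35 members could be named, and from each other list up to 4 genes with the smallest p of a comparison and a few fixed pathway genes. The members and lists were chosen with earlier results of these data known. Exon lengths, positions and overlaps come from GENCODE M21, promoters from RefSeq.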

Additional observations from a re-analysis of the deposited data

Results flagged for a closer look

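In the groups of 4, each gene of the set, and the median over the set, was checked for a library far from the other 3 (Dixon's test), which chance gives in about 1 in 20 groups. Of 72 checks 6 passed that limit. In PARPi+anti-VEGFA replicate 1 was far below the others for Oasl1 (20.3 CPM against 31.0 to 32.7), Rsad2 (27.6 against 42.1 to 43.5) and Irf7 (87.0 against 119 to 124). In the full combination Ifit2 was high in replicate 1 (92.7 CPM against 64.2 to 68.7), Irf9 was high in replicate 2 (87.1 against 77.6 to 78.9) and Oas3 was low in replicate 3 (17.2 against 27.5 to 28.1).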

How the results depend on the processing

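Counts are of members called, unless all genes are named. The settings also differed in how many of all genes they called. DESeq2 called 1031 of all 18107 genes for ICB, 3444 for PARPi+ICB and 3767 for PARPi+anti-VEGFA, each against control. By edgeR these were 400, 2922 and 3228 of all 18144 genes. PARPi against control moved from 0 to 1 with no filter, 7 with the compared groups alone and 3 with DESeq2. ICB against control moved from 1 to 0 with the replicate block, the compared groups alone, the covariate of quality RNAs, limma or without the libraries with acinar RNA, to 3 with DESeq2, and ran from 0 to 1 with single libraries left out. PARPi+ICB against control moved from 1 to 2 with the compared groups alone or DESeq2, to 0 with the covariate or limma, and ran from 0 to 2. PARPi+anti-VEGFA against control moved from 8 to 17 without the libraries with acinar RNA, 0 with the covariate and 14 with DESeq2, and ran from 5 to 20. The full combination against control moved from 6 to 1 with the covariate and ran from 3 to 6. ICB added to PARPi moved from 2 to 1 with the replicate block or the compared groups alone, 0 with the covariate or limma and 10 with DESeq2, and ran from 0 to 4. ICB added to PARPi+anti-VEGFA moved from 0 to 3, and the interaction of PARPi and ICB from 0 to 1, with DESeq2. Where more or fewer were called the cause was not tested. Of 43 single-gene fold changes recomputed under each setting none changed sign. These were the ones called by edgeR and others picked for naming, so a stable sign was likely from the start. Over the whole set, positive fold changes ran from 33 to 35 for PARPi against control. They ran from 8 to 22 for ICB against control and from 11 to 34 for anti-VEGFA added to PARPi.

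The replicate block changed PARPi+anti-VEGFA against control from 8 to 6. Of 46 same-numbered pairs of libraries from different groups 12 correlated above 0.1 over 12101 genes. Among the groups compared, all 3 pairs did so for PARPi+ICB with the full combination, where the block left 0 members called. All 3 pairs also did so for ICB with PARPi+anti-VEGFA (0.111 to 0.171), which were not compared. The highest correlation, 0.378, was that of replicate 2 of PARPi+ICB with replicate 2 of PARPi+anti-VEGFA. The labels state no pairing. At this depth 12 of 15 genes of ligands and receptors were too low to be tested.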
